A study of Mus musculus with 6 samples.

Results

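Serpins are a protein family in which most members block proteases, and the genes described here were chosen from the deposited table because their symbols begin with Serpin. They are Serpina3n and Serpinb1c, 2 of the 617 listed genes. The samples were right ventricles (RV) of neonatal mice, labelled WT for genotype and C57/BL6J for strain, harvested on postnatal day 7. On postnatal day 1 the PAB group had undergone pulmonary artery banding, in which a ligature narrows the vessel and raises the pressure the RV works against, and the sham group had undergone the operation without the band. RNA of each group was sequenced in 3 libraries. The labels do not say whether a library came from a single mouse, so p-values measure only the spread between these samples, which may be technical.

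A serpin offers an exposed reactive loop to its target protease, and once the protease cuts the loop the serpin changes shape and traps the enzyme in an inactive complex. Clade letters in the gene names group serpins by descent: many of clade A circulate in plasma as products of the liver, and most of clade B stay inside the cell. In the heart, serpins are known as brakes on the turnover of extracellular matrix and on proteases released by leukocytes.

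The mouse annotation GENCODE M21 names 68 Serpin genes and pseudogenes, of which 61 are protein-coding. Clade A has 29 of them and clade B 28, and Serpina3n and Serpinb1c are 1 from each. The genes in the table had been chosen by the submitters on the contrast of these same 6 libraries, and no gene in it has a deposited log2 fold change under 1 in size. Tests on them are therefore descriptive and give no independent support, and ranks and medians over the listed genes depend on that limit.

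Each value was taken as a normalised read count, that is, the reads of a gene in a library divided by the size factor of that library, because the low values of each library are whole multiples of a step. The table holds too few low values for a full check that 1 step is 1 read. On that reading, size factors lay between 0.939 and 1.07, and the listed genes together held 301448 to 659521 reads per library, which is part of each library and not its depth. PAB and sham were compared with limma on log2(value + 1) over all 617 genes, so a log2 fold change is on that scale, where the change of a gene with few reads comes out too small. P-values were adjusted over the 617 genes by the Benjamini-Hochberg method with a threshold of 0.05. Both serpins passed the filter on low values and were called higher in PAB, where 47.0% of the listed genes were called higher, 53.0% lower and 100% in either direction. In both, each PAB value lay above each sham value, as in 44.6% of the listed genes, while 97.1% showed no overlap in either direction. Nothing about serpins is read from these shares, because the table was selected on this contrast. With libraries scaled to the median ratio of the 617 genes instead of the deposited scaling, PAB moved by 0.594 against sham on the log2 scale, and 60.7% of 478 calls were higher and 39.3% lower. Serpina3n and Serpinb1c were higher in PAB under either scaling. Median-ratio scaling assumes that most genes do not change, while this table holds only genes selected for change. Its shift raises PAB values and works against genes called lower, so it could not turn a raised gene lower and is no support for the serpins.

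Serpina3n encodes a secreted serpin of clade A, a mouse relative of human antichymotrypsin. It is known as an acute phase gene and as an inhibitor of leukocyte proteases such as cathepsin G and granzyme B. The gene (ENSMUSG00000021091) lies at chr12:104406729-104414329 on the plus strand of GRCm38 and has 5 exons. Its normalised read counts were 11.3, 26.2 and 8.39 in sham replicates 1 to 3, and 92.7, 34.7 and 36.8 in PAB replicates 1 to 3. Sham replicate 2 was the highest of its group and came near the lower PAB libraries, and PAB replicate 1 stood far above the other PAB libraries. The groups did not overlap, but the lowest PAB value was only 1.33 times the highest sham value. The mean was 15.3 ± 9.54 (SD, n = 3) in sham and 54.7 ± 32.9 (SD, n = 3) in PAB, 3.57 times as high. The log2 fold change was 1.77 ± 0.53 (SE; 95% interval 0.60 to 2.95; limma, adjusted p = 0.00797), which ranked 96 among the 290 genes called higher. A single library moved the ratio of the means in either direction, to 2.33 without PAB replicate 1 and to 5.54 without sham replicate 2. The adjusted p-value from limma lay between 0.00343 and 0.0333 over all alternatives. In a bulk sample, a change in the number of cells of a type and a change in RNA per cell cannot be told apart.

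Serpinb1c is a clade B gene near Serpinb1a, whose product inhibits neutrophil elastase and cathepsin G inside cells. The gene (ENSMUSG00000079049) lies at chr13:32881434-32898211 on the minus strand and has 7 exons. Its normalised read counts were 1.89, 8.42 and 5.24 in sham replicates 1 to 3, and 75.6, 20.8 and 56.6 in PAB replicates 1 to 3. All sham libraries were low, PAB replicates 1 and 3 were the highest, and PAB replicate 2 was nearest to sham while still 2.47 times the highest sham value. If 1 step is 1 read, these values stand for 2, 9 and 5 reads in sham and for 71, 21 and 57 reads in PAB. On that reading, a count of 2 reads has an exact Poisson 95% interval of 0.242 to 7.22 reads, which covers counting error only. The mean was 5.18 ± 3.26 (SD, n = 3) in sham and 51.0 ± 27.8 (SD, n = 3) in PAB, 9.84 times as high. The log2 fold change of 3.05 ± 0.62 (SE; 95% interval 1.67 to 4.42; limma, adjusted p = 0.00183) was larger than that of Serpina3n and ranked 26 of 290. The intervals of the serpins overlapped, and the difference between the fold changes was not tested. With a pseudocount of 0.1 in place of 1 the log2 fold change of Serpinb1c was 3.32.

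**Figure D1:**
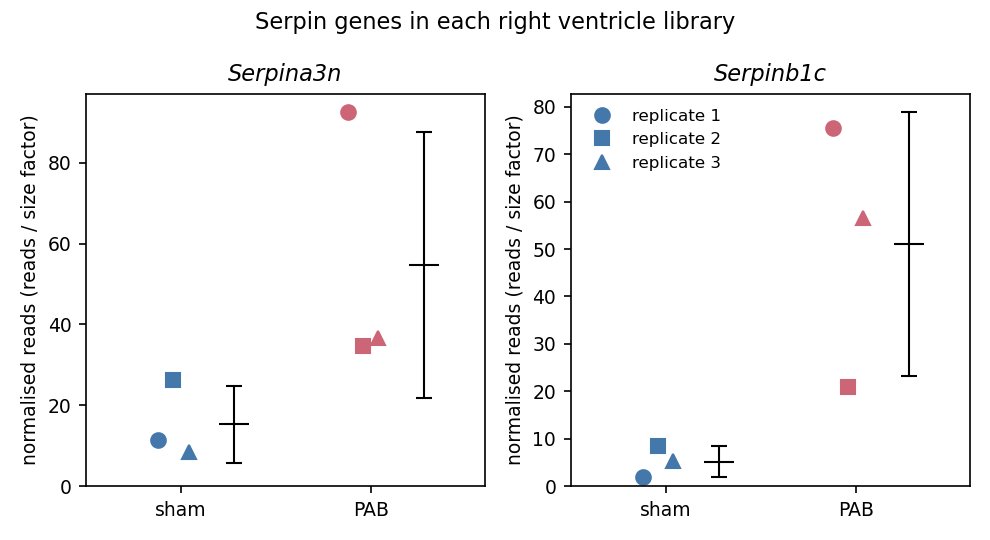
Normalised read counts (reads divided by the size factor, linear axes from 0) of Serpina3n and Serpinb1c in each sham and PAB library, with the replicate number as the symbol and the mean ± SD (n = 3) as a bar beside the points. In each gene the lowest PAB library lies above the highest sham library, and PAB replicate 1 is the highest library, at 92.7 for Serpina3n and 75.6 for Serpinb1c.

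Both serpins had their highest value in PAB replicate 1. The same library was the highest in 252 of the 290 genes called higher, or 86.9%, so this feature was shared with most raised genes. The serpins varied more over the PAB libraries than most raised genes did. Their coefficients of variation (SD as a percentage of the mean) were 60.1% for Serpina3n and 54.5% for Serpinb1c, against a median of 40.2% over raised genes. An exact permutation test over the 6 libraries gave a two-sided p of 0.1 for each serpin, which is the smallest that 3 libraries against 3 allow.

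Levels of different genes were set side by side per kilobase of gene length. In sham RV, Serpina3n had 7.42 ± 4.62 normalised reads per kilobase (SD, n = 3), with libraries from 4.06 to 12.7, and Serpinb1c had a mean of 3.17 with libraries from 1.16 to 5.15. In PAB RV the levels were 26.5 ± 15.9 for Serpina3n and 31.2 ± 17.0 for Serpinb1c (SD, n = 3). The ranges overlapped in both groups. Within libraries, Serpina3n was above Serpinb1c per kilobase in all 3 sham libraries (5.50 against 1.16, 12.7 against 5.15 and 4.06 against 3.21), while in PAB it was below in replicates 1 and 3 and above in replicate 2. The difference in level between the genes was not tested. The median level on this scale, over the 616 listed genes with a length, was 31.6 in sham and 30.8 in PAB. Both serpins lay below that median in every sham library. In PAB, Serpina3n had 44.9, 16.8 and 17.8 in replicates 1 to 3 and Serpinb1c 46.3, 12.8 and 34.7, so single libraries of each lay on either side of it.

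Once the group means were removed, the deviations of the log2 values over the 6 libraries had a Pearson correlation of 0.649 between Serpina3n and Serpinb1c. This is a description of 6 libraries that share the high PAB replicate 1.

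Other listed genes were ranked by the Pearson correlation of their log2 values with each serpin over the 6 libraries, group difference included. The top of a ranking of many genes over 6 libraries is high by selection, and all listed genes were chosen on this contrast. The correlations, also those on deviations, are therefore a description only. The genes most like Serpinb1c were Egr3, an immediate early transcription factor (0.994), Mgat5b, a glycosyltransferase (0.987), and Plcxd2 (0.984). Egr3 had 75.7, 118 and 117 normalised reads in sham and 321, 178 and 262 in PAB. Sham replicate 1 and PAB replicate 2 were the lowest of their groups in Egr3, as they were in Serpinb1c. On deviations from the group means the closest were Tox (0.983), Amy1 (0.980) and Egr3 (0.970), and of these Tox and Amy1 fell in PAB, with log2 fold changes of -2.23 and -1.50 (limma, adjusted p = 0.00393 and 0.00695). Under median-ratio scaling Amy1 lost its call (limma, adjusted p = 0.0660). The genes most like Serpina3n were Spata18 (0.971), Tusc5 (0.968) and Cds1, an enzyme of phospholipid synthesis (0.963). On deviations they were Bcl2, an inhibitor of apoptosis (0.991), Tusc5 (0.969) and Plekhd1 (0.956). No gene was among the 3 most like for more than 1 serpin by either measure. Exons of Tox and Bcl2 overlap another gene on the opposite strand and those of Amy1 overlap Rnpc3 on the same strand, which makes the values of these 3 genes uncertain. Whether reads were counted by strand is not given in the sources used here.

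Within 1 Mb of either serpin the table held 1 other gene. Mylk4, a myosin light chain kinase of striated muscle, lies 97480 bases from Serpinb1c on the same strand, counted between the nearest annotated edges. It had 446, 425 and 375 normalised reads in sham and 49.0, 71.4 and 126 in PAB, with no overlap. Its log2 fold change was -2.43 ± 0.34 (SE; limma, adjusted p = 0.000460), the opposite direction to Serpinb1c. A share of 1.77% of the 50-base windows of the Mylk4 transcript also occurs in other genes.

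**Figure D2:**
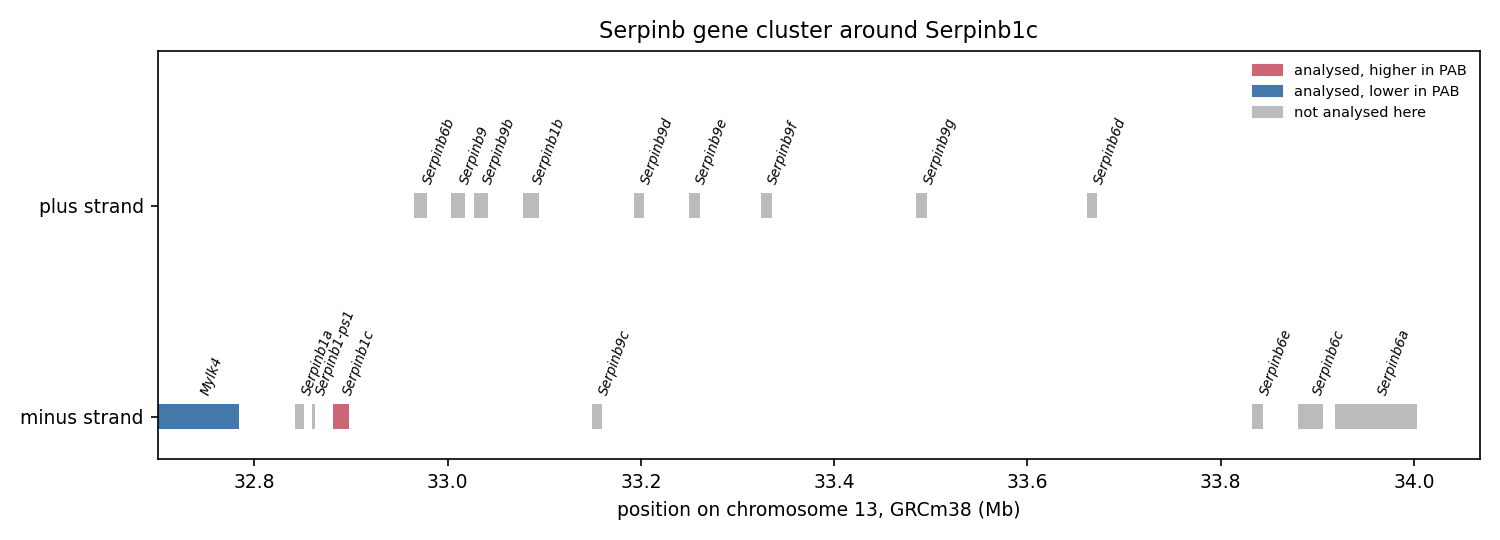
Map of the Serpinb genes around Serpinb1c on chromosome 13 of GRCm38 (position in Mb, plus strand above and minus strand below), with bars drawn to scale over each annotated gene. Serpinb1c (red, higher in PAB, log2 fold change 3.05) and Mylk4 (blue, lower in PAB, log2 fold change -2.43, cut at the left edge) were analysed, and the serpins in grey were not analysed here.

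Serpinb1c and Serpina3n belong to groups of recent gene copies, which bears on how far their reads can be assigned. The coding sequences of 62 annotated serpins were aligned end to end, and identity was counted over the aligned bases. Serpinb1c was 89.7% identical to Serpinb1a and 87.6% to Serpinb1b, after which identity dropped to 62.1% for Serpinb12. Serpina3n was 85.9% identical to Serpina3c, 85.3% to Serpina3f and 85.2% to Serpina3m. Serpina3n and Serpinb1c were 54.9% identical to each other.

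Of the 50-base windows of each longest transcript, 6.63% for Serpinb1c and 6.90% for Serpina3n also occurred in transcripts of other genes, most often Serpinb1a and Serpina3e-ps. No exon of either serpin overlapped an exon of another gene. How reads that fit several genes were counted is not given in the sources used here, so the values of Serpinb1c and Serpina3n carry that uncertainty. The paralogs themselves were not analysed here. The stretch of 60 coding bases in which Serpinb1c differs most from Serpinb1a shows where reads can be assigned. It holds 14 differing bases and lies in exon 7 of 7 of each gene, at chr13:32882122-32882181 for Serpinb1c and chr13:32843110-32843169 for Serpinb1a, both on the minus strand of GRCm38. Capitals mark the bases that differ.
Serpinb1c: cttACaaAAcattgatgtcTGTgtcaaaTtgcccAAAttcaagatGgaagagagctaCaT
Serpinb1a: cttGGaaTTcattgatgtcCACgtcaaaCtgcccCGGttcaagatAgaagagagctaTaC

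In contrast, a stretch of 60 bases in exon 3 of 7, at chr13:32888881-32888940 for Serpinb1c and chr13:32848628-32848687 for Serpinb1a, is the same in both genes, so a read within it cannot be assigned to a single gene. It has no capitals because no base differs.
Serpinb1c and Serpinb1a: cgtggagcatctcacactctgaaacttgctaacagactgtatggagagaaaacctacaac

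The corresponding stretch for Serpina3n and Serpina3c holds 22 differing bases in 60. It lies in exon 5 of 5 at chr12:104413514-104413573 on the plus strand for Serpina3n and at chr12:104147271-104147330 on the minus strand for Serpina3c. It lies close to the end of the coding sequence, at bases 1165 to 1224 of 1254 in Serpina3n. Capitals again mark the bases that differ. As in the other pair, a stretch of 60 bases is the same in both genes, in exon 2 of 5 at chr12:104409116-104409175 for Serpina3n and chr12:104151573-104151632 for Serpina3c, and reads within it cannot be assigned to a single gene.
Serpina3n: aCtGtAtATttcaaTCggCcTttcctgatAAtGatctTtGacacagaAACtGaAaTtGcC
Serpina3c: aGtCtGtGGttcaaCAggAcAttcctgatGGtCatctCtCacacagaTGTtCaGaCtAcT

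Promoter sequences of RefSeq (GRCm38.p6; 250 bases before to 50 after a start) were matched for both serpins, Serpina3n with a single window and Serpinb1c with a pair of windows. They were searched on both strands for 9 motifs. Serpina3n held the glucocorticoid half-site AGAACA at position -183 from the start, which 19.0% of all 32851 promoter windows also hold. It held the kappaB-like letters GGGNNNNNCC from positions -171 and -43, each also read on the opposite strand from the next base, and 50.8% of all windows hold them. A Serpinb1c window (chr13:32898091-32898390) held TATAAA at -48, found in 13.6% of all windows, and the other (chr13:32940551-32940850) held none of the motifs. Neither gene held TTCNNNGAA of STAT factors (8.30% of all windows), TGANTCA of AP-1 (7.81%), CATTCC of TEAD factors (14.7%), CACGTG (7.15%), GCGNGGGCG of Egr factors (5.55%) or a CArG box (1.63%). A match is a description of letters and no evidence of binding. The part of the Serpina3n window that lies before every annotated start, chr12:104406458-104406645 on the plus strand, is shown because it holds the half-site and the first kappaB-like match, which capitals mark.
Serpina3n promoter: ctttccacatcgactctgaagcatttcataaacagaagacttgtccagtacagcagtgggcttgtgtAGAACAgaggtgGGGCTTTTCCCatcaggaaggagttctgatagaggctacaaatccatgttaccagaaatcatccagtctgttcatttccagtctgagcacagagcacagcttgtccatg

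Other genes were taken from 6 lists of protease biology and of responses in which serpins are known to take part. These lists hold 305 distinct symbols, of which 11 were among the 617 listed genes. None of 96 serine proteases and none of 28 cysteine proteases was listed, so the target proteases of the serpins were not analysed here. None of the 60 genes on the list of acute phase and IL-6 family genes was listed either. This does not mean that the table held no such gene. Itih4, higher in PAB, was placed below with the other protease inhibitors and not on the acute phase list. That list leaves out Serpina3n itself and is not complete: Cntfr, a receptor subunit for a cytokine of the IL-6 family and named here after its values were seen, was listed and lower in PAB, at -1.49 on the log2 scale (limma, adjusted p = 0.00441), a call lost under median-ratio scaling (limma, adjusted p = 0.0539).

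Of 81 protease inhibitors other than serpins, 5 were listed, 4 higher and 1 lower in PAB, where 47.0% of all listed genes were called higher and 53.0% lower. Their median log2 fold change was 1.12, against -1.03 over all listed genes and 1.45 over those called higher. Since the table holds no gene under the selection limit on either side, the median over all of them falls at the edge of the lowered genes, and nothing is read from the difference. Timp3 and Timp4 encode tissue inhibitors of metalloproteinases and had log2 fold changes of 1.31 and 1.12 (limma, adjusted p = 0.00616 and 0.0220). Timp4 had 53.9, 103 and 64.0 normalised reads in sham and 289, 134 and 96.4 in PAB, so its groups overlapped, unlike those of the serpins. Its ratio of means went from 2.35 to 1.56 without PAB replicate 1, and it lost its call without sham replicate 1, sham replicate 3 or PAB replicate 1 (limma, adjusted p = 0.0871, 0.0658 and 0.0656). Exons of Timp3 and Timp4 overlap those of Syn3 and Syn2 on the opposite strand, which leaves both values uncertain. Crispld2, a secreted protein with LCCL domains that the list includes, rose by 1.58 on the log2 scale, and Itih4, an inter-alpha-trypsin inhibitor heavy chain, rose by 1.07 (limma, adjusted p = 0.000595 and 0.0143). Wfdc1, a secreted protein with a WAP domain, was lower in PAB, at -1.15 on the log2 scale (limma, adjusted p = 0.00201). Itih4 lost its call without PAB replicate 3 and Wfdc1 under median-ratio scaling (limma, adjusted p = 0.0534 and 0.0523).

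Of 33 genes of fibrinolysis and coagulation, 4 were listed, 3 higher and 1 lower, beside 47.0% higher and 53.0% lower over all listed genes. Their median log2 fold change was 1.04, and that of all genes called higher was 1.45. The gene that fell was Vtn, which encodes vitronectin, an adhesive protein of plasma and matrix. Vtn had 557, 575 and 617 normalised reads in sham and 111, 182 and 363 in PAB. Its sham libraries lay close together, its PAB libraries were spread out with PAB replicate 1 the lowest, and the groups did not overlap. The log2 fold change of Vtn was -1.58 ± 0.37 (SE; limma, adjusted p = 0.00333), the opposite direction to both serpins. The 3 that rose were Thbd (thrombomodulin, log2 fold change 0.98), F2r (a thrombin receptor, 1.12) and Vwf (von Willebrand factor, 1.11), with adjusted p-values from limma of 0.00393, 0.00425 and 0.0106.

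Of 20 glucocorticoid response genes, 2 were listed and both were higher in PAB, as were 47.0% of all listed genes, so the count says little about the list. Their median log2 fold change was 1.65, beside 1.45 for all genes called higher. Zbtb16 had 13.2, 12.2 and 12.6 normalised reads in sham and 75.6, 32.7 and 27.8 in PAB, that is, 1.62 higher in PAB on the log2 scale (limma, adjusted p = 0.00619). Its PAB libraries were ordered with replicate 1 far above a close pair, as in Serpina3n. Ddit4 had 270.5, 212 and 430.0 in sham and 1834, 1156 and 380.5 in PAB. Its groups overlapped, with PAB replicate 3 below sham replicate 3, and its log2 fold change was 1.67 (limma, adjusted p = 0.00811). A share of 0.750% of the windows of Zbtb16 occurs in other transcripts.

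**Figure D3:**
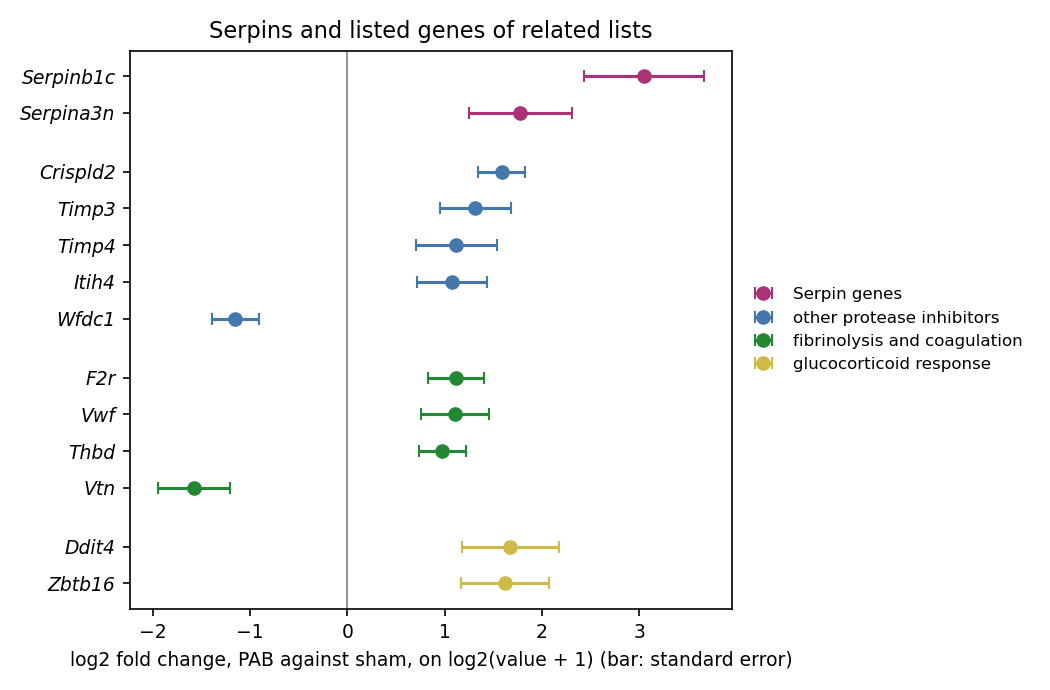
Log2 fold change of PAB against sham on the log2(value + 1) scale (horizontal axis; bars are standard errors from limma, n = 3 per group) for Serpina3n and Serpinb1c and for the listed members of 3 related lists, coloured by list. The serpins lie at 1.77 and 3.05, the other protease inhibitors between -1.15 and 1.58, and Vtn at -1.58.

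Markers of cell types that could carry serpin transcripts were counted in the same table. None of 19 neutrophil, 9 mast cell, 17 lymphocyte, 9 erythroid and 7 Schwann cell markers was listed, so their levels were not analysed here. Of 15 macrophage markers 1 was listed, C1qa, at 666, 700 and 643 normalised reads in sham and 312, 271 and 347 in PAB. Of 11 endothelial markers 2 were listed, Flt1 and Vwf. Their summed level was 3307, 2828 and 3117 in sham and 9153, 7087 and 4335 in PAB. Per kilobase, Flt1 had the higher mean in each group (127 against 85.2 for Vwf in sham, 269 against 201 in PAB). In PAB replicate 1, Vwf (4792) exceeded Flt1 (4361) only before division by gene length. Of 10 smooth muscle and pericyte markers 1 was listed, Cnn1, at 122, 106 and 122 in sham and 681, 289 and 372 in PAB. These endothelial and smooth muscle markers were highest in PAB replicate 1, as were both serpins, the raised markers Krt8, Krt18 and Nppa, and 86.9% of all genes called higher.

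Of 12 fibroblast markers 1 was listed, Dpt, which was lower in PAB (4720.3, 4759 and 4649 in sham, 1487, 2281 and 2511 in PAB). Of 10 epicardial and mesothelial markers 2 were listed, Krt8 and Krt18, whose summed level was 385, 310 and 335 in sham and 1538, 1057 and 1099.7 in PAB, with Krt18 the more abundant. Of 15 ventricular cardiomyocyte markers 1 was listed, Pln, at 21385, 21925 and 27039 in sham and 9037, 10319 and 12438 in PAB. Of 11 atrial cardiomyocyte markers 4 were listed, with Nppa higher in PAB, Myl1, Stard10 and Kcnj3 lower in PAB, and a summed level of 1045, 1183 and 1009 in sham and 22153, 9457 and 5387 in PAB. Nppa is also a known marker of ventricular load. Per kilobase, Nppa had the highest mean of the 4 in PAB and in sham (240 in sham, against 150 for Stard10 and 150 for Myl1). Before division by gene length, Stard10 had the highest mean in sham (363, against 312 for Myl1 and 208 for Nppa). Krt8, Krt18, Pln, Nppa, Myl1 and Kcnj3 share sequence or overlap exons with other genes and are uncertain. Dpt and Pln lost their calls under median-ratio scaling (limma, adjusted p = 0.0572 and 0.119). No listed marker was at 0 in any library, most defining markers of each list were not analysed here, and the part of these cell types in the serpin values was not tested.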

How the data were processed

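Bulk RNA sequencing covered the right ventricles of 3 sham and 3 PAB samples, grouped by their labels. The extraction protocol in the labels names a rat, while organism, strain and gene identifiers are those of the mouse. HISAT2 2.0.5, StringTie 1.3.3b, featureCounts 1.5.0-p3, GATK 3.7 and the build mm10 are named in the submitters' processing notes. The values, called FPKM by the submitters, behave as a signal that the authors deposited after dividing read counts by a size factor per library: of the 160 to 215 values under 50 steps in a library, 100% lay within 0.1 of a whole multiple of the step. The design written for FPKM was kept, since limma on log values also holds for such a signal. Deposited columns of log2 fold change and p-value hold the DESeq2 comparison run by the authors and gave no result here, the fold changes serving only to find the lower limit of the selection.

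Values were fitted as log2(value + 1) with limma 3.58.1 (lmFit, eBayes with trend, two-sided) in R 4.3.3, keeping genes whose mean reached 0.1 (no gene was lost, the lowest mean being 8.54). The fit was tested on simulated data. Alternatives changed the pseudocount, the filter, the scaling (median ratio), the trend, the replicate block, the p-value adjustment or the libraries (each left out in turn). Members, lists and markers were chosen with earlier results of these data known. Named genes were the serpins, of which 1 is not reported here, listed members of the lists, the 3 genes most like each serpin by each measure, listed neighbours within 1 Mb and paralogs. Transcripts and coordinates came from GENCODE M21 and coding sequences were aligned globally with Biopython 1.88. Other steps used Python 3.11.15, numpy 2.4.6, pandas 2.3.3, scipy 1.17.1 and matplotlib 3.10.9.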

Additional observations from a re-analysis of the deposited data

How the results depend on the processing

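Serpina3n and Serpinb1c were called higher in PAB under each of the 14 alternatives run, but not all of these could change a call. Both changes of the filter left the fit unchanged, because no gene had a mean under either limit. Dropping the adjustment of p-values only loosens the threshold, and median-ratio scaling moves PAB values up. The groups of both serpins did not overlap in any of the 8 alternatives in which overlap was counted. That outcome was fixed in advance, since leaving out libraries or moving PAB up cannot make groups overlap where PAB already lies above sham. With 1 library left out the log2 fold change lay between 1.32 and 2.22 for Serpina3n and between 2.58 and 3.58 for Serpinb1c. With PAB replicate 1 and sham replicate 2 both left out, an alternative chosen after seeing the data, it was 1.77 for Serpina3n and 3.06 for Serpinb1c. Median-ratio scaling over the listed genes left 188 genes called lower in place of 327, and 290 called higher, because under it PAB values move up by 0.594 (log2) relative to sham. Other counts over the listed genes stayed within 1.5 times the reported count. Of the 34 other named genes, 27 had the same direction and call under all alternatives run. The other 7, Amy1, Cntfr, Dpt, Pln, Wfdc1, Itih4 and Timp4, lost the call under at least 1 alternative without changing direction. With the replicate number as a block, 616 of the listed genes and both serpins were called (limma, adjusted p = 0.0143 for Serpina3n and 0.00628 for Serpinb1c). The deviations of libraries with the same number had correlations of -0.059, -0.055 and -0.199 across genes. These gave no sign that the numbers pair the libraries, but with 3 libraries per group and selected genes they cannot exclude it. edgeR and DESeq2 on recovered reads were not run, because the selected table holds too few low values to check the recovery. The low sham values of Serpinb1c and Serpina3n limit the precision of their fold changes, and genes outside the table were not analysed here.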
